A study of Rattus norvegicus with 2 samples.

Results

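The genes described here are 7 that set how much active SREBP a liver cell holds, or that handle sterols and the LDL receptor next to it: Insig1, Insig2, Srebf1, Srebf2, Scap, Stard4 and Mylip. They were taken by gene name from the array files, with every probe that carries the name, which gave 15 probes of 41012 and 7 genes of 33719 gene names on the array. The set was chosen with their own log2 ratios between the diets known, so these ratios are given as a description and carry no test. One group of rats had eaten a choline-deficient diet for 10 days and the other a control diet for the same time; the labels give an age of 7 weeks and spell the strain Wister. The labels name no genetic change in either group.

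RNA of whole liver was hybridised to 2 two-colour arrays, each with choline-deficient RNA in one dye and control RNA in the other. Choline-deficient RNA carried Cy5 on the first array and Cy3 on the second. The labels speak of 4 rats on the choline-deficient diet. They do not say whether the arrays hold RNA of different rats or the same extracts. Every SD below therefore measures the spread between these 2 arrays only, which may be technical. The p-values rest mostly on that spread pooled over all genes, with little weight on a gene's own. A gene whose arrays differ widely can therefore still be called. A ratio is the log2 of choline-deficient over control after background correction and loess normalization, and n is 2 arrays throughout. Between 53.5% and 63.2% of the gene spots, depending on array and dye, had a signal well above background. Both arrays are on 1 slide read in 1 scan, so no batch could be split. In whole tissue, fewer cells of a type and less RNA per cell cannot be told apart.

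SREBPs are transcription factors made as membrane proteins of the endoplasmic reticulum. Srebf1 encodes SREBP-1, which in liver acts mostly on fatty acid synthesis, and Srebf2 encodes SREBP-2, which acts mostly on cholesterol synthesis and LDL uptake. SCAP escorts the precursor to the Golgi, where the proteases encoded by Mbtps1 and Mbtps2 release the active part, and the proteins of Insig1 and Insig2 hold SCAP back when sterols are plentiful. Insig1 is itself a classic SREBP target gene, while Insig2 has a liver transcript known to be held down by insulin. Stard4 encodes a soluble sterol carrier that is also an SREBP target, and Mylip, also called Idol, encodes a ubiquitin ligase that is induced by the sterol receptor LXR and sends the LDL receptor to degradation.

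The Insig1 probes are shown because the size of its difference depends on which of them is read. All 4 lie on the minus strand of chromosome 4 in rat build rn4, within 1193 bases of each other by start position, and are numbered from the most 3′ one. Exon annotation was not used here, and the first 30 bases of each are printed, with no part in capitals.
Insig1 probe 1, chr4:2577508-2577567: tgactagaagagcaagtgatcttggtgatg
Insig1 probe 2, chr4:2578292-2578348: tgtaatagctgtctgctgtttcagtcgtaa
Insig1 probe 3, chr4:2578349-2578408: ctggacttttcatctcaatttaagtgaagt
Insig1 probe 4, chr4:2578701-2578760: gccatatttcaaagccttgaatcaaaatga

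The probes of the related genes are shown because Insig1 and Insig2, and Srebf1 and Srebf2, are pairs of similar genes that a probe could confuse. The longest run of bases shared by an Insig1 and an Insig2 probe was 8 over 12 probe pairs, and by a Srebf1 and a Srebf2 probe 7 over 4 pairs. Probes were compared only with each other and not with the transcript of the related gene. Whether a probe also binds RNA of the related gene was therefore not tested. The Insig2, Srebf1 and Stard4 probes printed here span 238, 517 and 2504 bases of the genome, longer than their 60 bases.
Insig2, chr13:33333061-33333298, minus strand: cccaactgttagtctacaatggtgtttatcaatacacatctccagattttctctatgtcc
Srebf1, chr10:46463470-46463986, minus strand: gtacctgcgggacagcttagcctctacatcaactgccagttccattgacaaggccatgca
Srebf2, chr7:120548399-120548458, plus strand: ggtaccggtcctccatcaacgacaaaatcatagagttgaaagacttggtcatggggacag
Scap, chr8:114761108-114761167, plus strand: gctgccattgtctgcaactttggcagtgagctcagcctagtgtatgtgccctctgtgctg
Stard4, chr18:25645901-25648404, minus strand: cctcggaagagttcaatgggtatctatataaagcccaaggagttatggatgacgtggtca

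Insig1 differed most between the diets among these genes, and only 1 of the 18196 genes tested had a higher mean log2 ratio. On probe 1 the signal above local background was 32040 and 14332 scanner units in choline-deficient livers on arrays 1 and 2, against 2704 and 7744 in control livers. Choline-deficient RNA was the brighter one in both dyes, so the direction on probe 1 does not depend on normalization. The normalized log2 ratio of probe 1 was 2.19 on array 1 and 2.04 on array 2, with a mean of 2.11 ± 0.11 (SD, n = 2), or 4.33-fold. On array 1 the uncorrected ratio was 11.8 and on array 2 it was 1.85, so the dye moves the size of the ratio on a single array by a large factor and the mean over the swapped pair is what can be read.

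The other Insig1 probes gave the same direction and smaller ratios. Probe 2 read 1.94 and 1.98 on arrays 1 and 2, a mean of 1.96 ± 0.03, or 3.89-fold. Probe 3 read 1.67 and 1.74, a mean of 1.70 ± 0.05, or 3.25-fold. Probe 4, the most 5′ of them, read 1.52 and 1.48, a mean of 1.50 ± 0.03, or 2.82-fold. The ratios decreased with each step towards the 5′ side, and the gap between the highest and the lowest mean, 0.62, was larger than the SD between arrays of any of them. All 4 probes were well above background in both diets on both arrays, and none was saturated.

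The signals of the 4 probes fall in the same order as their positions, so position along the transcript and probe brightness cannot be told apart as what the ratio follows. On probe 2 the signals were 16961 and 8586 in choline-deficient livers, against 1753 and 4596 in control livers. On probe 4 they were 2096 and 1113 in choline-deficient livers, against 288 and 705 in control livers. With the deposited log ratio the means were 2.12, 1.98, 1.78 and 1.69 from probe 1 to probe 4, and the gap narrowed to 0.43. An offset of 16 in place of 50 in the background correction gave a gap of 0.57, and median centring gave 0.62, with the means all in the same order. With median centring the arrays were unlike: from probe 1 to probe 4, array 1 read 3.46, 3.15, 2.77 and 2.47. Array 2 read 1.12, 1.13, 1.00 and 0.87, where probe 2 is not below probe 1.

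**Figure D1:**
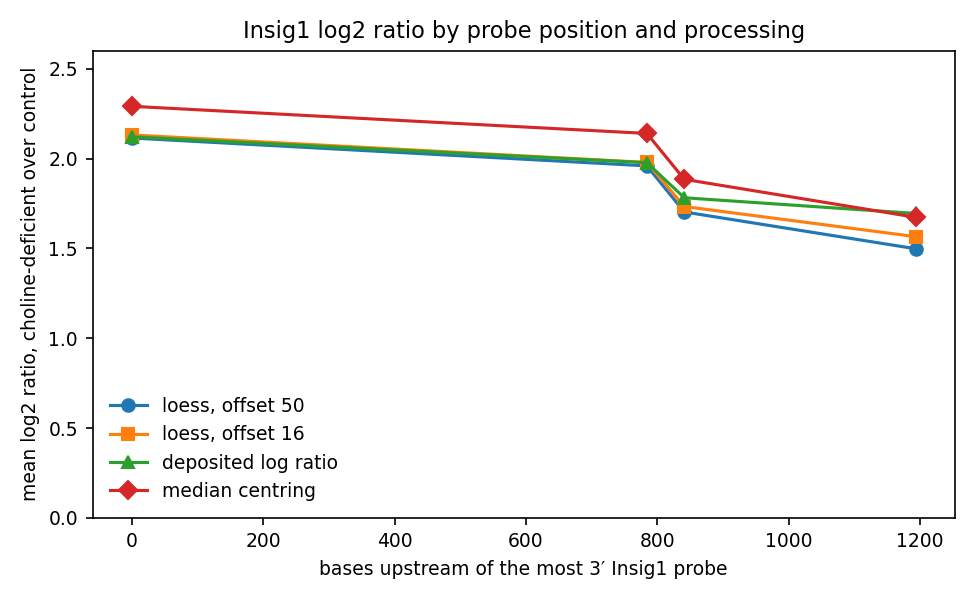
Mean log2 ratio (choline-deficient over control, 2 arrays) of the 4 Insig1 probes on the vertical axis against bases upstream of the most 3′ probe, one line per way of processing. The order of the probes is the same in each line, and the gap between the end probes is 0.62, 0.57, 0.43 and 0.62 with loess at offset 50, loess at offset 16, the deposited log ratio and median centring.

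Insig2, the second SREBP anchor, was lower in choline-deficient livers on all 3 probes and both arrays, by much less than Insig1 was higher. Its brightest probe read 11567 and 4701 scanner units in choline-deficient livers on arrays 1 and 2, against 5390 and 12687 in control livers. Here the brighter diet is whichever was in Cy5, so the direction on each array rests on the loess normalization. The normalized ratio was -0.22 and -0.32, a mean of -0.27 ± 0.07 (SD, n = 2). With median centring in place of loess the same probe gave 1.03 on array 1 and -1.19 on array 2, a mean of -0.08.

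The other Insig2 probes keep the sign and differ in size. The probe at chr13:33331220-33331279, on the 3′ side, read -0.50 and -0.43, a mean of -0.47 ± 0.05. The probe at chr13:33357818-33357877 lies 24520 bases upstream of the next one and read -0.21 on both arrays. The absolute ratio of the brightest Insig2 probe, with its mean of -0.27, is exceeded by 10.6% of the genes tested.

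**Figure D2:**
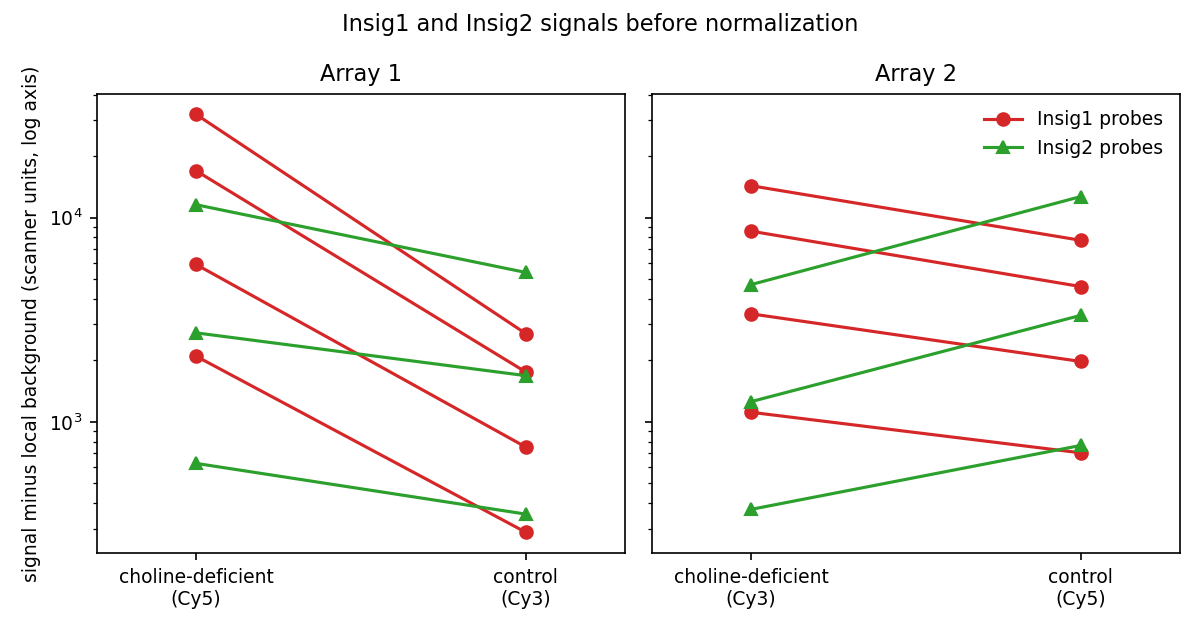
Signal minus local background (scanner units, log axis) of the 4 Insig1 and 3 Insig2 probes in choline-deficient and control liver RNA, before normalization, with a panel per array. Every Insig1 line falls from choline-deficient to control on both arrays (probe 1 at 14332 against 7744 on array 2), while every Insig2 line turns with the dye.

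The SREBP genes themselves differed little. Srebf1 was somewhat higher in choline-deficient livers on both of its probes. The brighter one, at chr10:46462235-46462294, read 44457 and 18296 scanner units in choline-deficient livers, against 12634 and 37458 in control livers. Its normalized ratio was 0.37 and 0.24, a mean of 0.30 ± 0.09 (SD, n = 2), or 1.23-fold. On both Srebf1 probes the brighter diet is whichever was in Cy5, so the direction on each array rests on the loess normalization. With median centring the brighter probe gave 1.74 on array 1 and -0.80 on array 2, a mean of 0.47. The printed Srebf1 probe has 10 spots on each array and read 0.27 and 0.42, a mean of 0.35 ± 0.10. The SD among its 10 spots was 0.0696 on array 1 and 0.0455 on array 2, and the spots of the arrays overlap, running from 0.16 to 0.36 on array 1 and from 0.33 to 0.47 on array 2. The files name no isoform (SREBP-1a or SREBP-1c) for either Srebf1 probe.

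Srebf2 was dim and close to equal between the diets. Its printed probe read 109 and 85.2 scanner units in choline-deficient livers, against 67.5 and 103 in control livers, with ratios of 0.14 and -0.01 and a mean of 0.06 ± 0.11. The groups change order between arrays after normalization. Its second probe, at chr7:120569291-120570130, was not well above background in either diet on either array and was left out. The deposited log ratio of the printed probe averaged 0.35, while an offset of 16 gave 0.08.

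Scap, the escort, had a mean ratio of 0.16 ± 0.03, with 0.18 and 0.14 on the arrays. Its probe read 3534 and 1734 scanner units in choline-deficient livers, against 1330 and 3091 in control livers. The brighter diet was again the one in Cy5, so the direction on each array rests on the loess normalization. Among the genes tested, 24.6% had a larger absolute ratio.

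Stard4, the sterol carrier, was higher in choline-deficient livers on both arrays after normalization. Its single probe read 497 and 293 scanner units in choline-deficient livers, against 183 and 359 in control livers. Here too the diet in Cy5 was the brighter one, so the direction on each array rests on the loess normalization. The ratios were 0.33 and 0.41, a mean of 0.37 ± 0.06 (SD, n = 2), or 1.29-fold. Of the genes tested, 5.60% had a larger absolute ratio, against 8.47% for Srebf1.

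Mylip, the ligase acting on the LDL receptor, showed no shared direction. Its brighter probe, at chr17:25308154-25308213, read 568 and 310 scanner units in choline-deficient livers, against 276 and 607 in control livers, with ratios of -0.01 and -0.17 and a mean of -0.09 ± 0.11. The other, at chr17:25309536-25309595, was well above background in choline-deficient livers on 1 of 2 arrays and read -0.12 and 0.26, a mean of 0.07 ± 0.26. The probes differ in sign and their spread between arrays is as large as their means or larger.

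**Figure D3:**
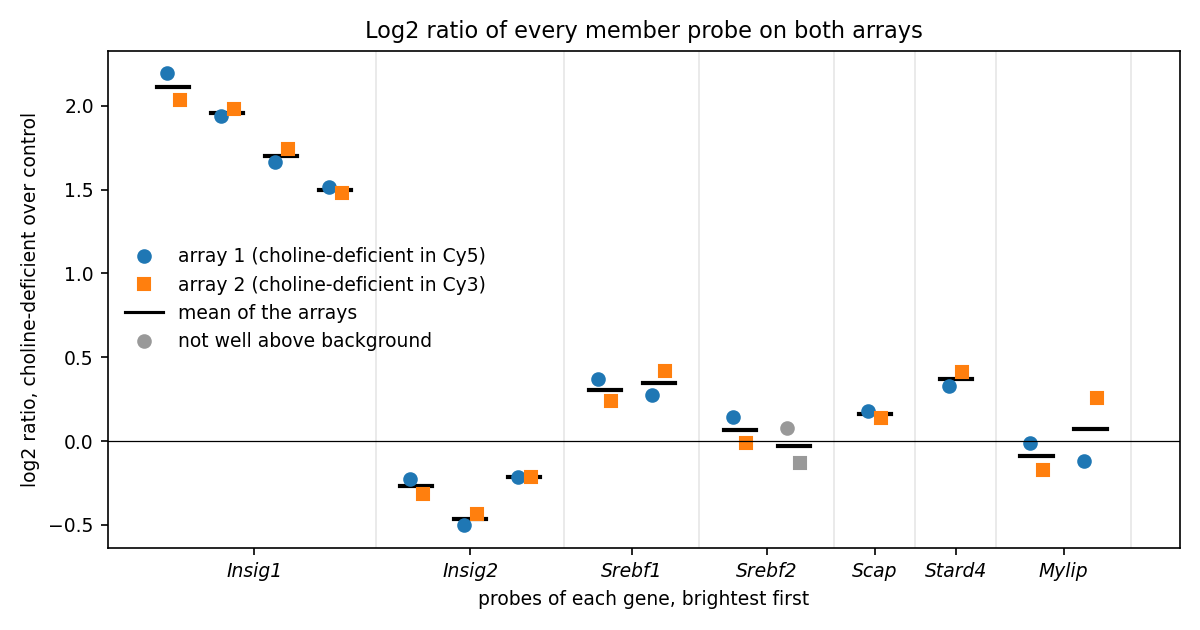
Log2 ratio (choline-deficient over control) of the 15 probes, grouped by gene with the brightest first, with a circle for array 1, a square for array 2 and a bar for their mean; grey marks the Srebf2 probe that was not well above background. The 4 Insig1 probes lie between 1.48 and 2.19, and every other probe lies between -0.50 and 0.42.

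Across all genes, limma's test called 795 of 18196 genes higher (4.37%) and 773 lower (4.25%) at an adjusted p of 0.05. Of the 7 genes described here, 3 were called higher (Insig1, Srebf1 and Stard4) and 0 lower. As they were chosen on this contrast, nothing is read from that count. The median ratio of the 7 was 0.16, beside 0.00 over all genes tested, and 6 of the 7 had the same sign on both arrays, beside 56.4% of all genes tested. The same choice bears on these values, so nothing is read from them either. All calls in this text end when the deposited log ratio or median centring is used in place of normexp and loess: each then gave 0 called genes in limma, with 2122 and 19 genes at an unadjusted p under 0.05, against 3195 with normexp and loess.

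The genes whose pair of ratios on the 2 arrays lay nearest to that of Insig1, of 12091 tested genes with a symbol, were Atf3, Aldh1a7, Ccl2, Btg2 and Ubd. Likeness is the Euclidean distance between the log2 ratios, over 2 arrays only. Atf3, a stress-induced transcription factor, was at a distance of 0.19 with ratios of 2.01 and 2.07. Ccl2, a chemokine that draws monocytes, was at 0.46 with ratios of 1.78 and 1.83. Ubd, at 0.83, was the farthest of them, with ratios of 1.47 and 1.64.

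The genes that act directly on SREBP processing gave 1 call. Of 25 genes for retention, transport and cleavage, 23 were tested, and the median ratio was 0.01. Of the 23, 0 rose and 1 fell, near the 4.37% and 4.25% of all genes tested. The one that fell was Ufd1 (Ufd1l on the array), part of the complex that extracts proteins from the endoplasmic reticulum for degradation, at -0.31 ± 0.01 (limma adjusted p = 0.0426). Its call is lost at an offset of 16 and without the filter on dim probes. Mbtps1, the first protease, was at -0.07 ± 0.08 and Mbtps2, the second, at 0.20 ± 0.18, and neither passed. Sec23b, a coat protein of the vesicles that leave the endoplasmic reticulum, was at 0.29 ± 0.14 (adjusted p = 0.0680), and passed only with an intensity trend in the variance prior. At an unadjusted p under 0.05 the list had 1 gene higher and 3 lower, beside 3195 of 18196 genes in either direction.

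Cofactors of SREBP and factors of its nuclear turnover gave no call. Of 12 genes, 10 were tested in limma, with 0 at an adjusted p of 0.05, 0 at an unadjusted p under 0.05 and a median of 0.01. Over all genes the unadjusted cut took 3195 of 18196. The widest mean was that of Nfyc, a subunit of the CCAAT-binding factor NF-Y, at -0.14 ± 0.24, with 0.03 ± 0.06 on its second probe. The coactivators Crebbp and Ep300 were at -0.09 ± 0.05 and 0.09 ± 0.02.

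Of 20 genes of the LDL receptor family and its handling, 18 were tested. Of the 18, 3 rose and 0 fell, beside 4.37% and 4.25% of all genes tested. The median was -0.06. At an unadjusted p under 0.05, 3 genes were higher and 1 lower, beside 3195 of 18196 genes in either direction. Anxa2, an annexin that binds membrane phospholipids, rose by 0.58 ± 0.20 on the log2 scale (limma adjusted p = 1.75e-05). Ccdc93, of the endosomal complex that recycles the receptor, rose by 0.30 ± 0.08 (adjusted p = 0.0492), a call lost at an offset of 16 and without the filter on dim probes. Lrp1, a related endocytic receptor, was at -0.30 ± 0.14 (adjusted p = 0.0502), with -0.07 ± 0.13 on its second probe.

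Most of the cholesterol synthesis enzymes rose. All 20 were tested: 13 rose and 0 fell, beside 4.37% and 4.25% of all genes tested. The median was 0.47, with 17 higher and 0 lower at an unadjusted p under 0.05, beside 3195 of 18196 genes in either direction. Sqle, squalene epoxidase, was highest at 1.18 ± 0.03, with 1.20 and 1.16 on the arrays (limma adjusted p = 8.01e-15), or 2.26-fold. Cyp51, which demethylates lanosterol, rose by 1.05 ± 0.09, Fdps, which makes farnesyl diphosphate, by 0.96 ± 0.04, and Idi1, an isomerase just before it, by 0.94 ± 0.12 (adjusted p of at most 4.89e-11). Hmgcs1, the HMG-CoA synthase, read 0.02 on array 1 and 0.69 on array 2, and its call (adjusted p = 0.0270) is lost in each of the 6 other ways of processing. Its second probe was at 0.21 ± 0.15. On the brightest probe of each gene, none of the 20 mean ratios, including the 7 that did not pass, was below 0. The other probe of Sc5d, an enzyme of this list, was at -0.15.

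Among the lipogenic targets of SREBP-1c, 16 of 18 genes were tested, with a median of 0.20. Of the 16, 8 rose and 0 fell, beside 4.37% and 4.25% of all genes tested. Fasn, fatty acid synthase, rose by 0.96 ± 0.21 (limma adjusted p = 2.83e-11). Fads2 and Fads1, the desaturases of polyunsaturated fatty acids, rose by 0.93 ± 0.01 and 0.86 ± 0.11. Pnpla3, a lipid-droplet protein, was not well above background in control livers on either array with either of its probes. It was at least 1.43-fold higher in choline-deficient livers on the brighter probe and at least 1.18-fold higher on the other. Pnpla3 passed the filter on dim probes only through the diet where it is high. Its call, counted among the 8, is therefore not read as support. Scd, the stearoyl-CoA desaturase that the array lists as Scd1, rose by 0.38 ± 0.07 (adjusted p = 0.00717), and was chosen after its value was seen. At an unadjusted p under 0.05, 8 genes were higher and 2 lower, beside 3195 of 18196 genes in either direction.

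LXR targets, to which Mylip belongs, gave 1 call. Of 13 genes, 11 were tested, with a median of -0.05. Of the 11, 1 rose and 0 fell, beside 4.37% and 4.25% of all genes tested. The one that rose was Lpl, lipoprotein lipase, at 0.61 ± 0.01 (limma adjusted p = 5.05e-06), with 0.31 ± 0.10 on its second probe. Abca1 and Abcg5, transporters that export sterols, were at -0.11 ± 0.11 and -0.32 ± 0.52, and Nr1h3, which encodes LXR alpha, was at -0.10 ± 0.23. Cyp7a1, the rate-limiting enzyme of bile acid synthesis, was at 0.15 ± 0.08, and Apoe at -0.29 ± 0.41. At an unadjusted p under 0.05, 1 gene was higher and 2 lower, beside 3195 of 18196 genes in either direction.

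Of 24 other sterol carriers, relatives of Stard4 and esterification genes, 22 were tested, and the median was -0.01. Of the 22, 1 rose and 1 fell, near the 4.37% and 4.25% of all genes tested. Tmem97, a protein of sterol transport and an SREBP target, rose by 0.71 ± 0.04 (limma adjusted p = 1.69e-07). Stard13, which shares the lipid-binding domain with Stard4, fell by 0.90 on the log2 scale with an SD of 0.59 (adjusted p = 6.78e-09), and its second probe was at -0.17 ± 0.10. Npc1, the lysosomal cholesterol exporter, was at -0.25 ± 0.01 on its brightest probe and between -0.29 and 0.01 over all of its probes, and Gramd1c, a sterol transfer protein, was at -0.25 ± 0.05, and neither passed.

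Insulin and fasting genes are given because Srebf1 and Insig2 are known to answer to insulin. Of 13 genes, 11 were tested, with a median of 0.03. Of the 11, 1 rose and 2 fell, beside 4.37% and 4.25% of all genes tested. G6pc, glucose-6-phosphatase, fell by 0.58 on the log2 scale with an SD of 0.15 (limma adjusted p = 1.81e-05) and was at -0.35 on its second probe, and Irs2, an adaptor of the insulin receptor, fell by 0.50 with an SD of 0.28 (adjusted p = 0.000375). Trib3, a pseudokinase that binds Akt, rose by 0.40 ± 0.25 (adjusted p = 0.00602), a call that is lost with an intensity trend.

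**Figure D4:**
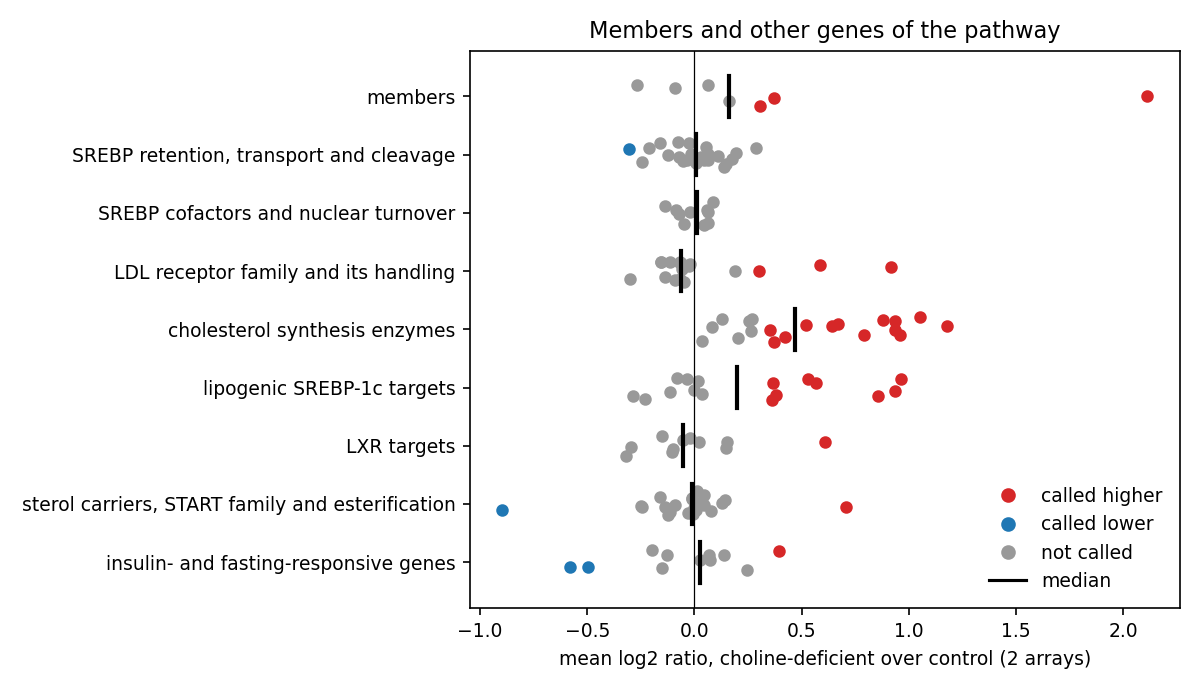
Mean log2 ratio (choline-deficient over control, 2 arrays) of the 7 genes and of each list's tested genes, a point per gene and a bar for the median; red marks genes called higher, blue genes called lower and grey the rest. Insig1 at 2.11 stands to the right of every listed gene, and the medians of the cholesterol and lipogenic lists are 0.47 and 0.20.

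Markers of liver cell types were measured beside these changes. Calls among them stand beside 4.37% higher and 4.25% lower of all genes tested. All 8 hepatocyte markers were well above background in both diets on both arrays, with summed levels of 807540 and 630461 in choline-deficient livers, against 745018 and 939490 in control livers. Of them Apoa1 rose (0.40 ± 0.24) and Alb (-0.31 ± 0.23) and Fgb (-0.67 ± 0.31) fell. Of 6 macrophage markers 1 rose, Marco (0.91 ± 0.13), with summed levels of 22063 and 24796 in choline-deficient livers, against 27546 and 25258 in control livers. Clec4f (-0.29 ± 0.23, not called) was much the brightest of the 6, so the sums are mostly its level. On array 1 Clec4f read 25487 scanner units in choline-deficient and 13144 in control livers, against 4461 and 1803 for Cd68, the next brightest. Of 4 tested stellate and fibroblast markers 2 rose, Col1a1 (0.53 ± 0.02 on its brightest probe, with 0.01 ± 0.20 and -0.06 ± 0.09 on the others) and Col3a1 (0.30 ± 0.01), with sums of 12008 and 11962 in choline-deficient livers, against 10641 and 10413 in control livers. Of 4 tested endothelial markers Kdr alone was called and fell (-0.46 ± 0.17). Cfd, the 1 adipocyte marker tested of 5, fell (-0.49 ± 0.03). Of 3 tested neutrophil markers S100a8 alone was called and rose (0.32 ± 0.16). S100a8 was dim, at 136 and 123 scanner units in choline-deficient livers, against 71.9 and 111 in control livers. The calls of S100a8, Alb and Col3a1 were near the threshold (limma adjusted p of 0.0343, 0.0422 and 0.0459). No cholangiocyte or lymphocyte marker passed in limma, of 3 and 2 tested. With an unadjusted p under 0.05 there were 1 and 0, beside 3195 of 18196 genes in either direction. Plin1 and Lep of adipocytes, Cd3e and Cd79b of lymphocytes, Elane of neutrophils and Pecam1 of endothelium were not well above background in either diet. Their part in the ratios of Insig1 and the other genes was not tested.

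Windows from 250 bases before to 50 bases after the start, from RefSeq on assembly GRCr8, were matched by symbol for 6 of the 7 genes (7 windows, of which 2 for Srebf1). Stard4 has none in the table. The Insig1 and Insig2 windows are printed in their first 200 bases, since the pair had ratios of opposite sign. Capitals mark the letters searched on both strands: the SRE core CACNCCAC, the NF-Y box CCAAT, the Sp1 box GGGCGG and the E-box CANNTG.
Insig1, GRCr8 chr4:8057820-8058019, minus strand: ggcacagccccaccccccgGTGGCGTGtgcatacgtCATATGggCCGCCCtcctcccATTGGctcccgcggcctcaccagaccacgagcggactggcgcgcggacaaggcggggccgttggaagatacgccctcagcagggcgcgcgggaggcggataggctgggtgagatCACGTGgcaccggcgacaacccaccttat
Insig2, GRCr8 chr13:35040149-35040348, minus strand: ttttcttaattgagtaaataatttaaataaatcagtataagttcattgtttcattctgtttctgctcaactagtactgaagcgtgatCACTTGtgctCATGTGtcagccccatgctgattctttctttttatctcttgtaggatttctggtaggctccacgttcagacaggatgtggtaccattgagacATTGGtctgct

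In the Insig1 window the SRE core is at -231 and again at 14 from the start, the Sp1 box at -206 and the NF-Y box at -193, all on the opposite strand. Of the 7 windows only that of Insig1 holds the SRE core, which occurs in 5.80% of 33469 rat windows of the same length. The longer form TCACNCCAC, which contains the core, occurs in 1.12% of all windows and in 0 of the 7. The NF-Y box was in 6 of the 7 windows and in 37.5% of all, the Sp1 box in 6 and 33.1%, and the E-box in 6 and 72.1%. A match of letters is a description of the window, and no binding was measured.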

How the data were processed

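Rat liver RNA was measured on 2 Agilent two-colour arrays with swapped dyes. Per the file headers, the authors extracted images with Agilent Feature Extraction (version 9.5 in the submitters' processing notes), and probe positions are on build rn4. The deposited scanner files give spot and background intensity per dye and the authors' log10 ratio of the processed Cy5 and Cy3 signals (Cy5 on top), made after background subtraction and lowess according to the headers. The deposited flags mark outliers and spots well above background.

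With limma 3.58.1 in R 4.3.3, signals were corrected by normexp (offset 50), normalized by loess within arrays and turned to choline-deficient over control as log2 ratios. The offset draws ratios of dim probes towards 0. Outlier spots (174 and 151) were dropped and spots of a probe averaged. Probes were kept (22367) where 1 diet or both had them well above background on each array, and each gene was its brightest kept probe. lmFit and eBayes tested 18196 genes against 0, two-sided, with 1 residual degree of freedom and Benjamini-Hochberg adjustment. The prior variance, fitted over all genes, had 63.25 degrees of freedom and so outweighed each gene's own spread. The fold of Pnpla3 is a bound, its normalized level in choline-deficient livers against a floor in control livers, which on each array is the dimmest detected level or the probe's own level, whichever is higher. The procedure was tested on simulated data. The alternatives were an offset of 16, the deposited log ratio, median centring, no filter on dim probes, the mean of kept probes, an intensity trend and each array left out.

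The genes and lists were chosen with earlier results of these data known. Named genes are the 7, up to 4 of each list with the largest absolute ratio, a set of fixed names (among them Hmgcs1, Sqle, Mbtps1, Mbtps2, Fasn, Abca1, Abcg5 and Nr1h3), the cell type markers, and the 5 genes nearest to Insig1. A few genes that this rule takes are not reported here. The array names Scd1 and Scd stand for the current Scd and Scd2 by accession, an update made after their values were seen. Promoter windows are those of RefSeq, assembly GRCr8.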

Additional observations from a re-analysis of the deposited data

How the results depend on the processing

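The Insig1 ratio stayed between 2.04 and 2.29 under the alternatives that keep its brightest probe, and was 1.82 as the mean of its 4 probes. Median centring gave 0.47 for Srebf1, 0.35 for Scap, 0.50 for Stard4, 0.05 for Mylip and -0.08 for Insig2. The deposited log ratio gave 0.35 for Srebf2 and 0.44 for Stard4. With the deposited log ratio and with median centring, 0 genes were called higher and 0 lower, overall and in every list. An offset of 16 gave 625 higher and 565 lower, and no filter on dim probes 618 and 605 of 33706. In the list for SREBP retention, transport and cleavage, 0 genes were lower at an offset of 16 or without the filter, and 1 was higher with an intensity trend. That trend also gave 1 lower gene in the LDL receptor list, 1 lower in the lipogenic list and 0 higher in the insulin and fasting list, and the mean of kept probes gave 2 lower sterol carriers. Median centring moved list medians to 0.14 (retention), 0.12 (cofactors), 0.039 (LDL receptor), 0.65 (cholesterol), 0.35 (lipogenic), 0.12 (LXR) and 0.078 (sterol carriers). Without the filter the medians were 0.13 (lipogenic), -0.020 (LXR) and -0.028 (insulin and fasting), and the deposited log ratio gave -0.061 for LXR. With either array left out, medians ranged from -0.016 to 0.097 (retention), -0.051 to 0.047 (cofactors), -0.097 to 0.0040 (LDL receptor), 0.45 to 0.58 (cholesterol), 0.16 to 0.20 (lipogenic), -0.0098 to -0.0052 (LXR), -0.066 to -0.0023 (sterol carriers) and -0.033 to 0.033 (insulin and fasting), as values with no test, since 1 array leaves no residual degree of freedom. The cause of these moves was not tested. No paired analysis was possible because each array is itself the pair of diets. Slide as a block could not be fitted, both arrays being on 1 slide. Probes near background, those of Srebf2 and the dimmer Mylip probe, limit what can be read.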
